A study of Mus musculus with 12 samples.

Results

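Pre-mRNA splicing factors and hnRNP proteins were followed in mouse hippocampal slices exposed to an ischemic solution and to DIDS. The members were the probes whose name carries the gene number of a mouse gene with a symbol beginning Snrp, Srsf, Hnrnp, Sf3a, Sf3b, Prpf or Lsm and a digit. The reference table held 84 such genes, and 47 of them had a probe, 69 probes in all of the 46628 on the array; 8102 genes in all had a probe named this way. Testing required that a probe exceed 0.99 in detection score on 3 or more of the distinct arrays, which 51 member probes of 39 genes did. Of these, 47 were detected on all 9 arrays and 4 on 3 to 8. The other 18 probes were detected on no array, and Hnrnpd, Hnrnpf, Hnrnpr, Lsm5, Prpf31, Prpf4b, Snrpb2 and Snrpe had no probe that was tested. The tested share was 73.9% of member probes, 51.2% of all probes with a gene name and 35.9% of all probes.

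Introns are removed by the spliceosome, which assembles from small nuclear ribonucleoproteins (snRNPs) around the U1, U2, U4, U5 and U6 RNAs. SR proteins bind exonic enhancers and recruit snRNPs, and hnRNP proteins coat nascent transcripts and often favour exon skipping. In neurons these factors take part in making the many brain-type isoforms of channels, receptors and cytoskeletal proteins. Several hnRNP proteins also travel with mRNA into dendrites.

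The material was organotypic slice culture of hippocampus from C57BL/6J mice of mixed gender, with no genotype or age in the labels, incubated for 2 h. The 4 groups were Control ACSF (artificial cerebrospinal fluid), IS (ischemic solution), ACSF + DIDS and IS + DIDS; DIDS is 4,4′-diisothiocyanatostilbene-2,2′-disulfonic acid, a blocker of anion transport. Total RNA was amplified and hybridised to Illumina Mouse-6 v1.1 BeadChips. The labels do not say whether numbered samples came from separate cultures or animals, so the p-values measure the spread between these samples, which may be technical. In bulk RNA from slices, fewer cells of a type and less RNA per cell cannot be told apart. Of 14 neuronal marker genes 9 had a probe, and 7 (Map2, Nefm, Syt1, Prox1, Tubb3, Rbfox3 and Slc17a7) passed the detection filter. The log2 of their summed normalized intensities ranged from 14.35 to 14.84 over the arrays. The markers that passed for astrocytes (4 of 9 listed), microglia (4 of 11) and oligodendrocytes (4 of 11) ranged from 14.58 to 15.22, 12.34 to 12.91 and 13.39 to 14.01. Of 12 endothelial and meningeal markers only Dcn passed. Its 2 probes, summed in the same way, gave 11.13, 10.96 and 11.49 in Control ACSF and 11.09 and 11.50 in IS. They gave 11.88 and 12.54 in ACSF + DIDS and 11.39 and 12.50 in IS + DIDS. The part of Dcn in the results with DIDS was not tested.

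The 12 scanner files held 9 distinct arrays, because 3 pairs of files had 0 differing signals. The file of IS 2 was identical to that of ACSF + DIDS 3, and ACSF + DIDS 1 to IS + DIDS 2. These pairs carry titles of different groups. IS + DIDS 1 was identical to IS + DIDS 3. The authors' value table, a separate deposit of processed values, held 12 distinct columns. Each distinct scanner array matched 1 column of that table (Spearman 0.9969 or higher over probes), and this placed the repeated arrays as ACSF + DIDS 3, IS + DIDS 2 and IS + DIDS 3. The 3 columns IS 2, ACSF + DIDS 1 and IS + DIDS 1 matched no scanner file used here. The main fit therefore had 3 Control ACSF arrays and 2 in each other group, and the 12 columns of the value table, 3 per group, gave a second fit on log2 values. These sources share 9 arrays and are not independent. The array titled ACSF + DIDS 2 is described in its own record as treated with IS and DIDS; the title was followed. Control ACSF 1, Control ACSF 2 and IS 1 lay on 1 chip and the other 6 scanner arrays on another. IS 1 had a median raw signal of 131.9, the other 8 arrays had medians of 69.5 to 83.6, and between 32.8% and 35.6% of probes counted as detected on each. Among the 12 columns, IS + DIDS 1 stood apart on the first principal component, at 50.6 against -17.7 to 8.92 for the other 11 columns. The value table calls of Lsm10 and Prpf38a are given with and without it. Unless stated, other results from the 12 columns include it.

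The promoter windows below belong to genes on which the results turn: Lsm10 and Prpf38a, which were highest in IS + DIDS, and Hnrnpk, Hnrnpa2b1 and Hnrnpa3, which were low together on single arrays. Each runs 5′ to 3′ on the gene's strand from 250 bases before the start to 50 after it (RefSeq, GRCm38.p6), and capitals mark, on either strand, GGAAG (the core of ETS factor sites), CCAAT (the box bound by NF-Y) and TATAAA (the TATA box).
Lsm10 promoter, chr4:126096403-126096702, plus strand: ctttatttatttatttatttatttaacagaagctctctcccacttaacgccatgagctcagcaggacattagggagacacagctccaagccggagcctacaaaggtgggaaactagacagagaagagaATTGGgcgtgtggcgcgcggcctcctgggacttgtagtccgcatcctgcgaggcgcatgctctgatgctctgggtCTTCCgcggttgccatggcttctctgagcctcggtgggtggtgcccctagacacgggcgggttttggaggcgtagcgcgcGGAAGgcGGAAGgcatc
Prpf38a promoter, chr4:108579287-108579586, minus strand: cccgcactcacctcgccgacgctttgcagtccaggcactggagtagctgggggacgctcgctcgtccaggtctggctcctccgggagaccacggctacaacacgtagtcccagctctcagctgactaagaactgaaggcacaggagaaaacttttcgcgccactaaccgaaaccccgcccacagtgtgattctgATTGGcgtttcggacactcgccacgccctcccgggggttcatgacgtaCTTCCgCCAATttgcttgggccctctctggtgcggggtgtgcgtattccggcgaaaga
Hnrnpk promoter, chr13:58402068-58402367, minus strand: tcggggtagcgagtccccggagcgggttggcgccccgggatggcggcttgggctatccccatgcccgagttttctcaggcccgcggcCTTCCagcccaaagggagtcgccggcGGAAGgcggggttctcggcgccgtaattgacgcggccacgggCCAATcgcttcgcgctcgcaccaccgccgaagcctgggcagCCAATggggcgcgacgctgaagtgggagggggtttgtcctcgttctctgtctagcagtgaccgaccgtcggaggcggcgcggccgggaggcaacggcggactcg
Hnrnpa2b1 promoter, chr6:51469845-51470144, minus strand: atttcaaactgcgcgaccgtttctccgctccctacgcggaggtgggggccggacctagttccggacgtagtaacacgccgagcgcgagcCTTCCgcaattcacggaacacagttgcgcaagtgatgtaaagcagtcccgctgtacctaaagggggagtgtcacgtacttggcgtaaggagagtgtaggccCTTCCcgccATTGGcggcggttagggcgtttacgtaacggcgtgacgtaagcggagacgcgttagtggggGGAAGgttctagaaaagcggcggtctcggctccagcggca
Hnrnpa3 promoter, chr2:75659009-75659308, plus strand: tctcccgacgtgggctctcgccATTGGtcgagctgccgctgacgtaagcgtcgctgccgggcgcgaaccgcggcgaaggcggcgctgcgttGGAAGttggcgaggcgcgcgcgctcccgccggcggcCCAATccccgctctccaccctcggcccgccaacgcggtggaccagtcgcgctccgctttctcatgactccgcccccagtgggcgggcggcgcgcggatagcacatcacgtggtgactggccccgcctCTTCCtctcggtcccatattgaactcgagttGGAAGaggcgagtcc

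The CCAAT motif was found in 22 of the 34 members' promoters in that table, or 64.7%, against 37.9% of 27025 promoters, and in all 5 windows shown. GGAAG was in 67.6% of members' promoters and 71.1% of all. TATAAA was in 14.7% and 14.2%, and in none of the 5 windows. Median GC content was 59.2% in members' promoters and 52.7% in all promoters. A match describes the letters only, and the link between promoter content and level was not tested. Hnrnpa2b1 had a further listed start whose window is not shown.

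The widest gaps between arrays were those of a few hnRNP probes. Over the 9 scanner arrays the gap between the highest and lowest log2 level of a probe had a median of 0.40 for members and 0.39 for all 16723 tested probes. None of the 33 probes of SR proteins, snRNPs, Prp factors and Lsm proteins spanned more than 1, whereas 4 of the 18 hnRNP probes did, or 22.2%, against 6.36% of all probes. Those 4 were Hnrnpa2b1, Hnrnpk, Hnrnpa3 and Hnrnpdl. By the median gap, the 7 Lsm probes at 0.68 were wider than the 18 hnRNP probes at 0.61. Over the 12 columns of the value table, 8 of 18 hnRNP probes and 3 of the 33 others (Snrpb, Snrpn and Lsm14b) spanned more than 1, against 20.2% of all probes. These columns include IS + DIDS 1, where these Snrpb and Snrpn probes had their lowest values, 8.09 and 13.11. Brightness differs between probes for reasons other than RNA abundance, so levels below are compared only within a probe. The background correction leaves a floor of 7.52 on the log2 scale, near which differences are compressed. The 4 probes detected on only some arrays were 1 each of Prpf3, Prpf4, Prpf40b and Hnrnpul1, all near this floor.

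**Figure D1:**
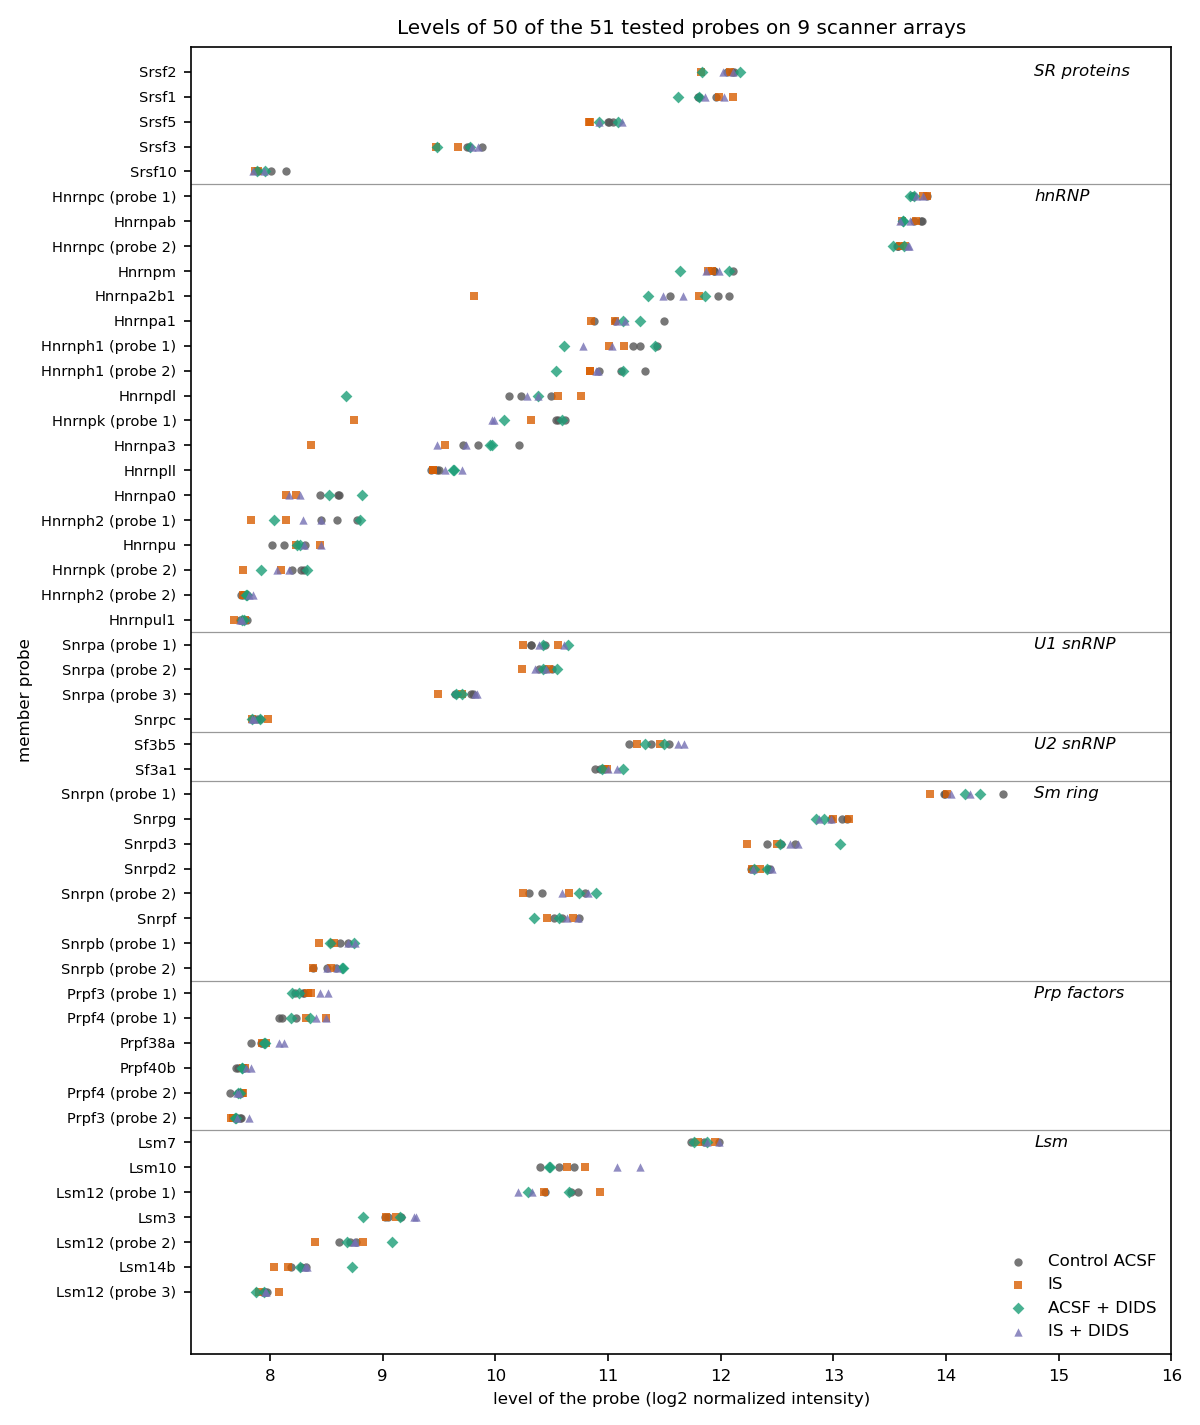
Each row is 1 of 50 of the 51 tested probes, grouped by role, and each point is 1 of 9 scanner arrays, with the log2 normalized intensity on the x axis and group shown by marker and colour. Several probes of a gene are numbered from the brightest; single IS or ACSF + DIDS arrays lie far to the left for Hnrnpa2b1, Hnrnpk, Hnrnpa3 and Hnrnpdl, and both IS + DIDS arrays lie to the right for Lsm10.

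The 5 probes of exon-recognising SR proteins had a median span of 0.34 over the scanner arrays, against 0.39 for all tested probes. Srsf2 ranged from 11.83 to 12.17, Srsf1 from 11.62 to 12.11 and Srsf5 from 10.83 to 11.13. Srsf3, the smallest member of the family, ranged from 9.47 to 9.88. Srsf10, which is known to repress splicing when dephosphorylated after heat shock, ranged from 7.85 to 8.14. These values are close to the floor, and in the value table Srsf10 ranged from 7.53 to 8.29. The widest of the scanner spans was 0.49, that of Srsf1.

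Among the snRNP proteins, the Sm proteins that form the ring around the U1, U2, U4 and U5 RNAs included Snrpn, the imprinted neuronal form of SmB. Its 2 probes spanned 13.86 to 14.51 and 10.25 to 10.89, and both were lowest on IS 1. Snrpd3 ranged from 12.23 to 13.06, with its highest value on ACSF + DIDS 3. The 3 probes of Snrpa, an RNA-binding protein of the U1 snRNP, spanned 0.31 to 0.40. Sf3a1 and Sf3b5, subunits of the U2 complexes that recognise the branch site, spanned 0.25 and 0.49.

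Under the ischemic solution without DIDS, several hnRNP probes were lower than in Control ACSF and no member passed the test. The count was 0 of 51 member probes, against 0.179% of all tested probes (limma with Benjamini-Hochberg adjustment), and at an unadjusted p under 0.05 it was 5 member probes against 12.7% of all. The 12-column fit gave 0 members, against 0.891% of all. The members' median log2 difference was -0.04, against -0.0049 for all probes, with 19 higher and 32 lower. Of all probes, 48.2% were higher. By role, 14 of 18 hnRNP probes were lower in IS (12 of 18 in the value table), 7 of 8 Sm probes were lower and 6 of 7 Prp probes were higher (7 of 8 and 6 of 7 there too); these directions were not tested.

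Hnrnpa0, a protein that binds AU-rich mRNA elements, measured 8.60, 8.45 and 8.61 in Control ACSF and 8.23 and 8.14 in IS. The difference of -0.37 (SE 0.0973) did not pass the test (limma adjusted p = 0.213). The Hnrnpa0 levels in the value table were 8.99, 8.81 and 9.02 against 8.52, 8.68 and 8.29, and differed by -0.44 (limma adjusted p = 0.362). Prpf4, a protein of the U4/U6 snRNP, measured 8.11, 8.08 and 8.23 in Control ACSF and 8.32 and 8.49 in IS on its brighter probe. Its difference was 0.27 (SE 0.0831, limma adjusted p = 0.266), and its dimmer probe, near the floor, differed by 0.05.

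Hnrnpk, which binds C-rich RNA, gave a mean difference that rested on 1 array. Its brighter probe measured 10.54, 10.62 and 10.56 in Control ACSF and 10.32 and 8.75 in IS, a difference of -1.04 (SE 0.410, limma adjusted p = 0.361). Without IS 1 the difference was -1.83, which passed the test (limma adjusted p = 0.0379) and compares the lone array IS 3 with Control ACSF. Without IS 3 it was -0.26. Hnrnpa3 and Hnrnph2 (brighter probe) differed by -0.97 (SE 0.330) and -0.62 (SE 0.225), and in both IS 3 was the lower of the IS arrays. Without IS 3 these differences were -0.37 and -0.45. Control ACSF 1, Control ACSF 2 and IS 1 share a chip while IS 3 shares its chip with Control ACSF 3, so these differences also span chips.

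With DIDS in ACSF, against Control ACSF, no member passed the test. The count was 0 of 51, against 0.0598% of all probes, and 3 members had an unadjusted p under 0.05, against 8.99% of all. The 12-column fit gave 0 members, against 0.592%. The members' median difference was -0.03, with 22 of 51 higher. Hnrnpll, known for regulating Cd45 splicing in lymphocytes, differed by 0.16 (SE 0.0546, limma adjusted p = 0.467), but by -0.02 in the value table. Hnrnpab differed by -0.14 (SE 0.0544, limma adjusted p = 0.509) and Snrpg, an Sm ring subunit, by -0.17 (SE 0.0698, limma adjusted p = 0.528). Hnrnpdl, an AU-rich element binding protein that regulates its own splicing, measured 10.12, 10.22 and 10.49 in Control ACSF, 10.38 on ACSF + DIDS 2 and 8.68 on ACSF + DIDS 3. Its mean difference of -0.75 (SE 0.437, limma adjusted p = 0.654) rested on ACSF + DIDS 3, and without that array it was 0.10. The scanner signals of that array were also filed under the title IS 2.

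**Figure D2:**
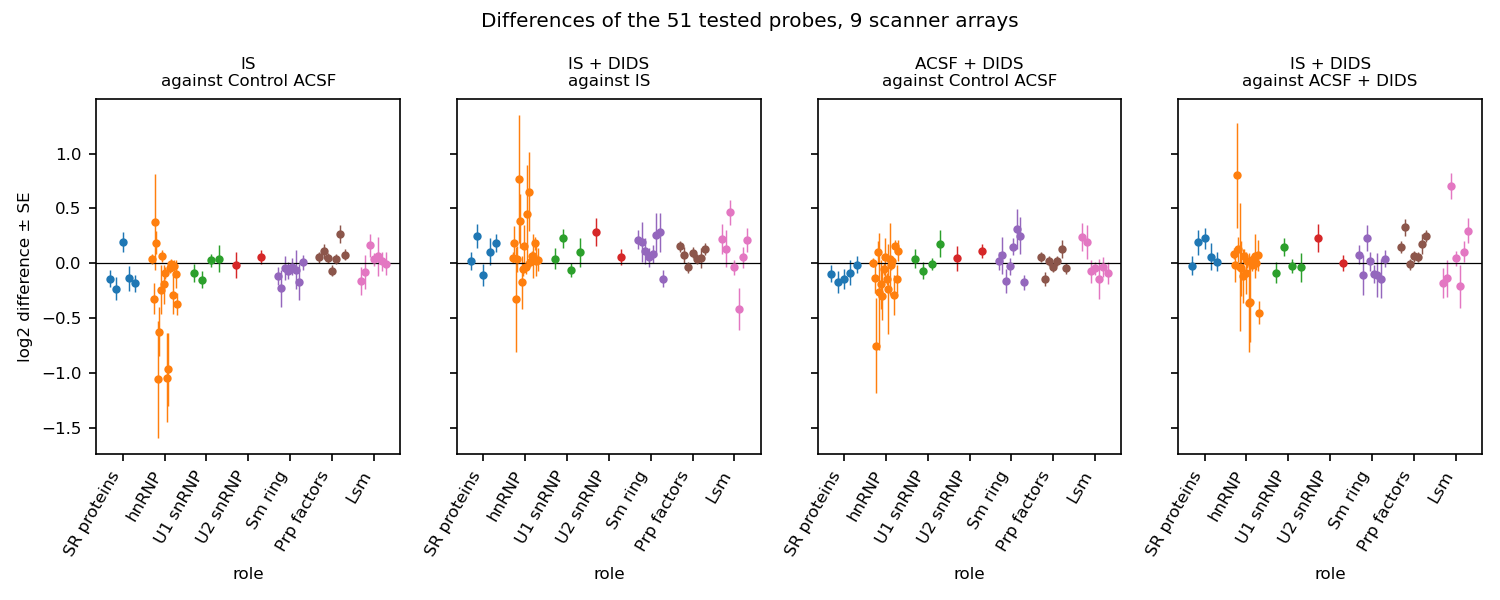
Log2 differences of the 51 tested probes in 4 comparisons of the 9 scanner arrays, by role on the x axis; points are probes and bars are the standard error of the fit. No probe passed the adjusted threshold, and the widest error bars belong to hnRNP probes.

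With DIDS present during the ischemic solution, several Prp, Lsm and snRNP probes read higher on each IS + DIDS array than on any other array. In IS + DIDS against ACSF + DIDS, 0 of 51 member probes passed in the scanner fit, against 0.179% of all probes, and 6 had an unadjusted p under 0.05, against 12.9% of all. In the 12-column fit 2 members passed, among them Lsm10, against 2.47% of all. In IS + DIDS against IS, 0 members passed in the scanner fit, against 1.23% of all, and 5 had an unadjusted p under 0.05, against 18% of all. Prpf38a alone passed in the value table, against 3.07%. Of the 51 members, 41 were higher in IS + DIDS than in IS, against 55.6% of all probes, with medians of 0.09 and 0.02. The value table had 35 higher, against 52.5%. Against ACSF + DIDS, 30 were higher, against 52.9%.

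Lsm10 encodes a subunit of the U7 snRNP, the particle that processes the 3′ ends of replication-dependent histone mRNAs, where it stands in for SmD1. On the scanner arrays it measured 11.08 and 11.28 in IS + DIDS, 10.48 and 10.47 in ACSF + DIDS, 10.80 and 10.64 in IS, and 10.70, 10.57 and 10.39 in Control ACSF. Both IS + DIDS arrays lay above the other 7 arrays. The difference from ACSF + DIDS was 0.70 (SE 0.116, 1.63-fold), which did not pass the test (limma adjusted p = 0.0856), and all 4 of these arrays lay on 1 chip. With chip as a block the same difference passed (limma adjusted p = 0.0320). In the value table Lsm10 measured 11.41, 11.19 and 11.36 in IS + DIDS, 10.53, 10.65 and 10.65 in ACSF + DIDS, 10.94, 11.00 and 10.79 in IS, and 10.85, 10.74 and 10.57 in Control ACSF. The 3 IS + DIDS values again lay above the other 9, and the difference of 0.71 (SE 0.111) passed (limma adjusted p = 0.00711). It also passed in each of the 12 fits that left out 1 column, among them that without IS + DIDS 1, at 0.66 (limma adjusted p = 0.0212). Leaving out a Control ACSF or IS column cannot change this difference, only the shared spread. With the 9 columns that match scanner arrays it did not pass, at 0.62 (limma adjusted p = 0.0952). Counting ACSF + DIDS 2 as IS + DIDS, as its description has it, lowered the scanner difference to 0.48 (limma adjusted p = 0.652).

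Against IS, the Lsm10 difference was 0.47 (SE 0.116, limma adjusted p = 0.105) on the scanner arrays and 0.41 (SE 0.111, limma adjusted p = 0.0685) in the value table. The IS effect was 0.16 without DIDS, and the difference between the IS effects with and without DIDS was 0.54 (SE 0.158, limma adjusted p = 0.286). Over the 12 columns this difference was 0.52 (limma adjusted p = 0.232). The IS effects with and without DIDS were thus not shown to differ.

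Prpf38a, whose yeast counterpart is needed to activate the assembled spliceosome, measured 8.08 and 8.12 in IS + DIDS and 7.83 to 7.96 on the other 7 arrays. The scanner difference from IS was 0.16 (SE 0.0521, limma adjusted p = 0.187), on values close to the floor. Its value table levels were 8.42, 8.17 and 8.27 in IS + DIDS, and the other 9 columns ran from 7.50 to 7.90. The difference from IS was 0.53 (SE 0.128) and passed (limma adjusted p = 0.0447). That call held in 1 of the 12 fits that each left out 1 column. The column left out there was Control ACSF 2, which does not enter the difference. Without IS + DIDS 1 the difference was 0.46 (limma adjusted p = 0.0967), and the 2 remaining columns still lay above the other 9.

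**Figure D3:**
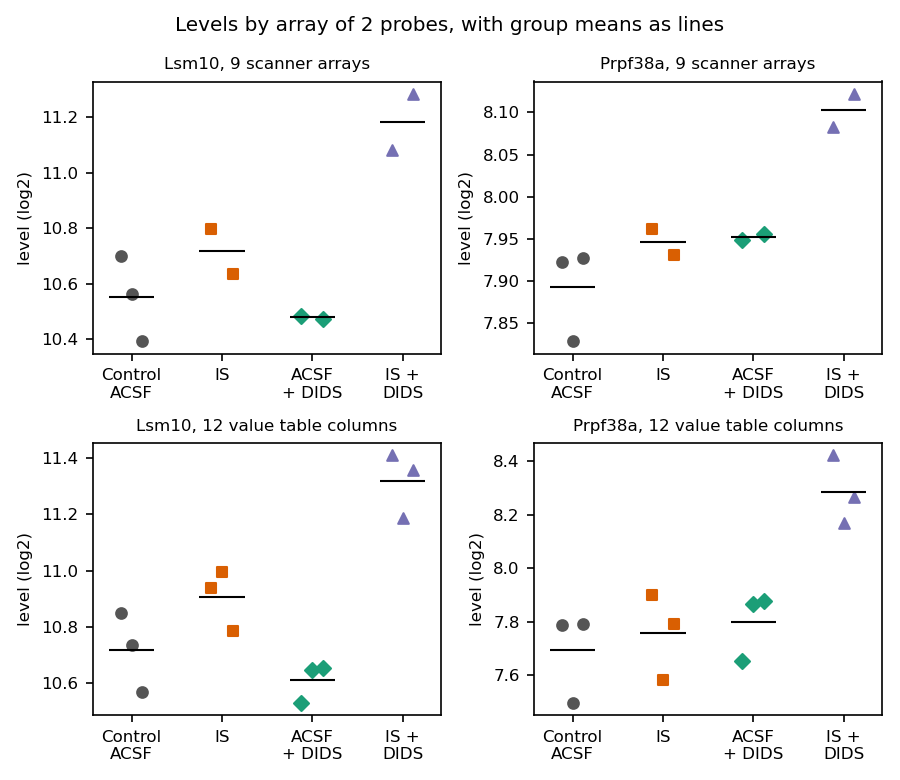
Log2 levels of Lsm10 and Prpf38a by group, on 9 scanner arrays (top) and in 12 value table columns (bottom); points are arrays, lines are group means, and the y axes do not start at 0. In all 4 panels every IS + DIDS point lies above every other point.

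Lsm10 and Prpf38a belonged to a larger set with the same order, which follows the title of ACSF + DIDS 2. Counted as IS + DIDS, as its description has it, that array broke the order for Lsm10, Prpf38a and the other probes named below. Lsm10 measured 10.48 on it and 10.80 on IS 1, and Prpf38a 7.95 and 7.96. On 10 of 51 member probes both IS + DIDS arrays lay above the other 7 scanner arrays, or 19.6%, against 9.48% of all probes. Likewise, all 3 IS + DIDS columns of the value table lay above the other 9 on 8 members, or 15.7%, against 4.04% of all probes. The 8 included Lsm10, Lsm3, Prpf3 (brighter probe), Prpf38a, Prpf40b, Sf3b5 and the dimmer Hnrnph2 probe, and all 8 were among the 10 of the scanner arrays. The other 2 were the Snrpa probe scl0053607.2_231-S and the Hnrnpc probe scl0015381.1_237-S. The other tested probes of Prpf3, Hnrnph2, Snrpa and Hnrnpc did not keep this order on the scanner arrays. Some leads were narrow and near the floor. Prpf40b measured 7.79 and 7.83 in IS + DIDS and up to 7.77 elsewhere, and the dimmer Hnrnph2 probe 7.81 and 7.85 and up to 7.80. No member probe lay below every other array in IS + DIDS in either source, against 7.71% and 4.04% of all probes. Over all probes, too, IS + DIDS had the largest shares at either extreme among the 4 groups. These shares describe the arrays and were not tested.

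Prpf3, a U4/U6 snRNP protein mutated in a form of retinitis pigmentosa, measured 8.44 and 8.52 in IS + DIDS and 8.19 to 8.36 elsewhere, and differed from ACSF + DIDS by 0.25 (SE 0.0546, limma adjusted p = 0.129). Sf3b5 measured 11.67 and 11.62 against 11.18 to 11.54, a difference of 0.23 from ACSF + DIDS (SE 0.127, limma adjusted p = 0.513). Lsm3, a subunit of the ring on U6 RNA, measured 9.29 and 9.28 against 8.82 to 9.16 and differed by 0.30 (SE 0.110, limma adjusted p = 0.323). Hnrnpa0 moved the other way, with 8.27 and 8.17 in IS + DIDS and 8.53 and 8.81 in ACSF + DIDS, a difference of -0.45 (SE 0.107, limma adjusted p = 0.154). None of these 4 passed in the value table either.

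The IS effect with DIDS minus that without it had a median of 0.10 over members and 0.02 over all probes. The scanner fit called 0 members, against 0.0299% of all probes, and the 12-column fit 0, against 0.532%. Besides Lsm10, the members with an unadjusted p under 0.05 were Srsf3, at 0.42 (SE 0.153, limma adjusted p = 0.374), and the Snrpa probe scl0053607.2_231-S, at 0.30 (SE 0.116, limma adjusted p = 0.404), so 3 in all, against 11.6% of all probes. For the arrays with DIDS against those without, the count was 0 members and 0% of all probes, and 4 members against 13.6% of all probes had an unadjusted p under 0.05. The value table called 0 members, against 0.455%. Hnrnpll had the smallest p there, with a difference of 0.17 (SE 0.0375, limma adjusted p = 0.148), but the value table gave -0.0028.

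The lowest hnRNP values, more than 1 log2 unit below the median of the other arrays, fell on single arrays of different groups. On IS 3, Hnrnpa2b1, an hnRNP known to sort mRNA into dendrites, measured 9.81, and on the other 8 scanner arrays 11.36 to 12.07. Hnrnpa3, a relative of Hnrnpa2b1, measured 8.36 on IS 3 and 9.48 to 10.21 elsewhere. Hnrnpk measured 8.75 on IS 3 and 9.97 to 10.62 elsewhere on its brighter probe, and its dimmer probe was also lowest there, at 7.76 against 7.92 to 8.33. In all, 3 of 18 hnRNP probes lay more than 1 log2 unit below the median of the other arrays on IS 3, where 0.239% of all probes did. The values of Hnrnpa2b1, Hnrnpa3 and, below, Hnrnpdl each rest on 1 probe, because the other probe of each gene was detected on no array.

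The array IS + DIDS 1, held only in the value table, had the same genes low. Hnrnpa2b1 measured 9.63 there, Hnrnpa3 8.90, and the Hnrnpk probes 8.94 and 7.08. Hnrnph2 (brighter probe), which binds G-rich runs, measured 6.70, and its relative Hnrnph1 measured 10.09 and 9.93 on its 2 tested probes. On this array 8 of 18 hnRNP probes lay more than 1 below the median of the other columns, against 3.27% of all probes. Of the 33 other members 0 did so by that margin, which is near that share and says little about them. Probes of Snrpb, Snrpn and Snrpa were also low there, by less than 1. By the same table, IS 3 had 5 of 18 past that margin, against 0.646% of all probes. The 5 were the 2 Hnrnpk probes, Hnrnpa2b1, Hnrnpa3 and Hnrnph2 (brighter probe), and all were among the 8 of IS + DIDS 1.

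On ACSF + DIDS 3 the low probes were in part the same. Among the scanner arrays Hnrnpa2b1 (11.36), the brighter Hnrnph2 probe (8.03) and the dimmer Hnrnpk probe (7.92) were second lowest there, after IS 3. Hnrnpa3 went the other way, and its 9.97 there was second only to Control ACSF 1. Hnrnpdl measured 8.68 there, against 10.12 to 10.76 on the other scanner arrays, and the Hnrnph1 probes measured 10.61 and 10.54, each the lowest of the 9. Only Hnrnpdl passed a margin of 1, 1 of 18 hnRNP probes against 0.227% of all. IS + DIDS 1 was also low for Hnrnpdl, at 9.47 in the value table, whereas IS 3 had the highest Hnrnpdl level of the scanner arrays, 10.76. By comparison, both probes of Hnrnpc, which binds uridine tracts, spanned only 0.14 and 0.15 over the 9 scanner arrays. IS + DIDS 1 also had the largest share of all probes low by that margin and stood apart on the first principal component. The part of these array-wide differences in the low hnRNP values was not tested.

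**Figure D4:**
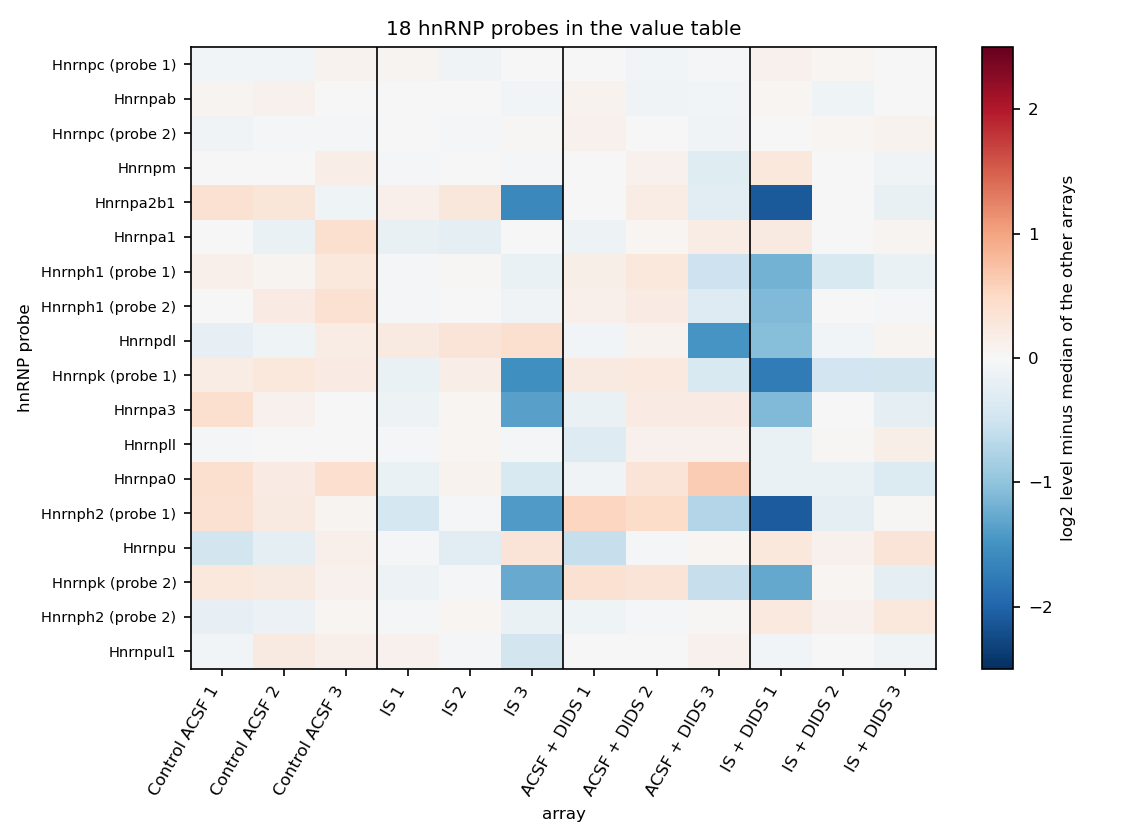
Each cell is the log2 level of an hnRNP probe in 1 of the 12 value table columns minus the median of the other 11 columns (red higher, blue lower), with vertical lines between the 4 groups. Dark blue cells gather on IS 3, IS + DIDS 1 and, for Hnrnpdl, ACSF + DIDS 3.

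Genes that work with the members were read from 6 lists. Of 60 spliceosome proteins outside the symbol rule, 24 were tested with 27 probes, and of 14 snRNP assembly factors 7 were tested with 11 probes. The lists of SR protein kinases and phosphatases, of neuronal and other tissue splicing regulators, of exon junction, decay and export factors, and of cleavage and polyadenylation factors had 5, 25, 11 and 10 probes tested. Over the 6 comparisons of the scanner fit a single probe of these lists passed. It was Nono, a paraspeckle protein, which was higher in IS + DIDS than in IS by 0.66 (SE 0.0713, limma adjusted p = 0.0258), and the value table gave 0.54 (limma adjusted p = 0.00927). In that comparison 1.23% of all probes passed in the scanner fit and 3.07% in the value table. Ptbp1, the polypyrimidine tract repressor of neuronal exons, differed by -0.88 on the scanner arrays (limma adjusted p = 0.176) and by -0.73 in the value table, where it passed (limma adjusted p = 0.0411). In IS + DIDS against ACSF + DIDS the spliceosome proteins outside the rule had a median of 0.19, against 0.0074 for all probes. Of their 27 probes 18 were higher, against 52.9% of all probes, and 0 passed the test. The tissue splicing regulators went the other way, with a median of -0.11 and 4 of 25 probes higher. Of snRNP assembly probes 5 of 11 were higher, and of SR protein kinases and phosphatases 2 of 5. Of exon junction, decay and export factors 7 of 11 were higher, and of cleavage and polyadenylation factors 9 of 10. Clk1, a kinase of SR proteins, differed by 0.34 in IS against Control ACSF (limma adjusted p = 0.260) and by -0.42 in IS + DIDS against IS (limma adjusted p = 0.130).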

How the data were processed

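The authors exported a bead-averaged intensity for every probe from BeadStudio 2.3.47 with no normalization, per the file headers, while the submitters' processing notes name BeadStudio 2.0. The deposited detection score runs from 0 to 1, per the file headers, with detected probes near 1. Bead numbers and bead spread stand beside them. Member probes had 9 to 64 beads on an array (median 32), and this number limits precision. The authors' value table holds processed intensity values, also deposited, whose normalization is not given in the sources used here. Its columns had medians of 80.6 to 82.5, and it was put on the log2 scale as it stands.

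Probes were named through the gene number in the probe name and the RefSeq table for GRCm38.p6. The files give no probe sequences, so reads of paralogs and of transcripts that share exons, such as Snrpn with Snurf, were not separated. Signals were corrected with neqc in limma 3.58.1 (R 4.3.3), where detection scores stand in for negative control probes (offset 16), then quantile normalized. The inferred background spread was 256 to 304 signal units, against 8.9 to 17.9 read from the middle of the detection score, so dim probes are compressed; the narrower spread was run as an alternative. One limma fit with a mean for each group and a shared spread covered the 16723 probes whose score exceeded 0.99 on 3 or more arrays, and p-values were adjusted by Benjamini-Hochberg (threshold 0.05). Probes of a gene were kept apart. The values of 1 member are not reported here, and it is counted in all totals.

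The design written first left out the 2 arrays filed under titles of 2 groups, ACSF + DIDS 3 and IS + DIDS 2. After the match to the value table they were placed by it, before calls were compared, and the fit without them is an alternative. That fit left ACSF + DIDS 2 and IS + DIDS 3 alone in their groups. Its members' median for IS + DIDS against ACSF + DIDS was 0.04, against 0.02 in the main fit. The procedure was tested on simulated data. The replicate numbers were not used to pair the samples in the main fit. Same-numbered pairs correlated from -0.32 to 0.43, and 10 of 18 exceeded 0.1. Differently numbered pairs correlated from -0.33 to 0.41. Whether the numbers mark paired samples was not settled. Members, lists and the rule for named genes were chosen with earlier results of these data known. For each comparison, the rule allowed full statistics for member probes past the threshold and for up to 6 higher and 6 lower ones of smallest p, and up to 3 genes per related list. The groups of probes highest in IS + DIDS or low on single arrays were chosen after their values were seen.

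Alternatives were other background corrections, median scaling, other detection filters, chip or replicate as a block, eBayes with trend, other placements of the repeated arrays and of ACSF + DIDS 2, each array left out, and the value table.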

Additional observations from a re-analysis of the deposited data

Results flagged for a closer look

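Within the arrays with DIDS and within those without, 204 sets of 4 to 6 values of a member probe were searched for 1 value far from the others (Dixon's criterion, which chance meets in about 1 in 20 sets). It was met in 26. The same share over all tested probes is not given here, so this count is no result about the members. These sets pool the ACSF and IS arrays, and the value table repeats the 9 scanner arrays, so the sets are not independent.

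Low hnRNP values made up the largest group. On IS 3 among arrays without DIDS, Hnrnpa2b1 stood at 9.81 on the scanner arrays and 10.12 in the value table, and the brighter Hnrnpk probe at 8.75 and 9.14. In the value table the dimmer Hnrnpk probe stood at 7.08 and Hnrnpa3 at 8.65 on that array. Srsf2 was also low on IS 3, at 11.83 and 11.89. On ACSF + DIDS 3, Hnrnpdl stood at 8.68, and in the value table Hnrnpu stood at 7.95 on ACSF + DIDS 1.

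In the value table IS + DIDS 1 stood apart among the arrays with DIDS for 9 probes. Low were Hnrnpa2b1 at 9.63, the brighter Hnrnpk probe at 8.94, Hnrnpa3 at 8.90, Snrpb at 8.09, Snrpn at 13.11 and 2 Snrpa probes at 9.84 and 9.91. High were Snrpd2 at 12.83 and Snrpg at 13.32. The third Snrpa probe, scl0053607.2_231-S, did not share the low value and read 10.23, the highest of its 12 columns, so the probes of this gene disagree on that array.

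Control ACSF 3 was high for Snrpn, at 14.51 on the scanner arrays and 14.47 in the value table, and for Hnrnpm, at 12.11 and 12.16. The remaining values were Lsm14b at 8.73 on ACSF + DIDS 3, Prpf3 (dimmer probe) at 7.81 on IS + DIDS 2 and Lsm12 (dimmest probe) at 7.88 on ACSF + DIDS 2.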

How the results depend on the processing

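The main fit called 0 members in each of the 6 comparisons, and 40 other settings were run. Of 236 counts of members under them, 23 differed from the main fit. In IS against Control ACSF, leaving out 1 scanner array gave 0 to 1 (Hnrnpk without IS 1). In IS + DIDS against IS, chip as a block gave 2 (Lsm10 and the Snrpa probe scl0053607.2_231-S) and the value table (12 columns) 1 with or without the replicate block. Value table fits without 1 column gave 0 to 1. In ACSF + DIDS against Control ACSF, counting ACSF + DIDS 2 as IS + DIDS gave 1, Hnrnpdl. In IS + DIDS against ACSF + DIDS, chip as a block gave 1 (Lsm10), counting ACSF + DIDS 2 as IS + DIDS gave 1, and leaving out 1 scanner array gave 0 to 1; both of these were Hnrnpdl, at 1.67 and, without ACSF + DIDS 2, 1.65, where ACSF + DIDS 3 was the lone array of its group. The value table gave 2 there, 2 with the replicate block and 1 to 2 without 1 column. The replicate block on the scanner arrays changed no call. With no test, none of 242 medians moved by more than the pooled spread of the member median between replicates, 0.31, which is wide beside the medians. Of 2830 values of 72 named differences, 136 changed sign without passing the threshold, 31 passed it and 0 reversed a call. Lsm10 in IS + DIDS against ACSF + DIDS stayed between 0.48 and 0.80, with adjusted p from 0.00649 to 1, and passed in 15 of 40 settings, 14 of them on the value table. The cause of these changes was not tested. Limits are 2 arrays in 3 of the groups, dim probes compressed by the background correction, the unstated scale of the value table, 3 columns with no scanner file used here, and the conflict between title and description of ACSF + DIDS 2.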
